A study of Mus musculus with 16 samples.

Results

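The transcripts described here encode the enzymes that build cholesterol and fatty acids, together with the proteins that sense and move sterols. Of the 51912 genes in the deposited table, 32 were taken as members by their gene symbol, and 31 of these had a mean normalized count of at least 10 over all libraries and were tested among 12505 genes. The remaining member, *Me1*, had 0 reads in every library. Total RNA came from 4 subpopulations of splenic cMyc+ light zone (LZ) germinal center (GC) B cells, with 4 libraries each. The mice carried 2 copies of a cMyc gfp reporter allele (cMyc gfp/gfp), in which GFP is fused to cMyc at its own locus, so that all groups share the reporter. They were of both sexes, were 6 to 15 weeks old and had received sheep red blood cells (SRBC) i.p. 7 d before sorting. After enrichment of CD43-negative cells, B220+ CD38low CD95+ cMycGFP+ cells were divided by surface markers. The cMyc+prePB subpopulation, candidate precursors of plasmablasts, was sorted as CD69hi, cMyc+early as CD23hi CD21/35hi, cMyc+lateCD23int as intermediate and cMyc+lateCD23lo as low for CD23 and CD21/35. How many mice each library represents, and whether equal replicate numbers mark shared mice, is not given in the labels, and p-values therefore measure only the spread between these libraries.

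Cholesterol is made from acetyl-CoA through mevalonate, farnesyl diphosphate and squalene, and fatty acids are made from cytosolic acetyl-CoA that ATP citrate lyase supplies. Most genes of both routes are targets of the sterol regulatory element binding proteins (SREBPs), which SCAP escorts from the endoplasmic reticulum when sterols are low and which INSIG proteins hold back when sterols are high. Dividing lymphocytes use these routes for new membrane, and secretory B cells enlarge their endoplasmic reticulum.

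The members were first looked at in the sequence before their start sites. RefSeq promoter windows of GRCm38.p6, from 250 bases before to 50 bases after the start, were at hand for 25 of the 32 members, in 32 windows. No window was at hand for *Sqle*, *Fads1*, *Fdft1*, *Fdps*, *Scd1*, *Stard4* and *Scd2*, which were therefore not searched. A sterol regulatory element with the letters TCACNCCAC was searched on both strands and was found in 1 member window, that of *Hmgcs1*, and in 1.24% of all 32851 windows. The E-box CACGTG, which reads the same on both strands, was found in 7 member windows of *Dhcr7*, *Elovl5*, *Hsd17b7*, *Insig1*, *Sc5d* and *Scap* and in 7.15% of all windows. The CCAAT box was found in 21 and the GC box GGGCGG in 23 of the 32 member windows, against 37.4% and 35.7% of all windows, with matches counted whether or not they overlapped another motif. The upstream bases are printed for the 3 members that had both a sterol element or E-box there and an unadjusted p under 0.05 over the 4 subpopulations. *Fdft1* and *Scd1* also had such a p but no window. They lie at chr13:119690101-119690350 on the + strand (*Hmgcs1*), chr5:28071162-28071362 on the + strand (*Insig1*) and chr9:42264301-42264550 on the - strand (*Sc5d*) of GRCm38.p6, and are written 5′ to 3′. Capitals mark the sterol element in *Hmgcs1*, which begins 137 bases before the RefSeq start, and the E-box in *Insig1* and *Sc5d*, which begins 101 and 98 bases before it.
Hmgcs1: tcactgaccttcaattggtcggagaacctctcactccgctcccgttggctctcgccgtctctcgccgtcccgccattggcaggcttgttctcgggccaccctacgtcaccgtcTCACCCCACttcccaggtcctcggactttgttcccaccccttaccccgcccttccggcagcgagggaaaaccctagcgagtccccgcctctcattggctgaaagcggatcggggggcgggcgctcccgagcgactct
Insig1: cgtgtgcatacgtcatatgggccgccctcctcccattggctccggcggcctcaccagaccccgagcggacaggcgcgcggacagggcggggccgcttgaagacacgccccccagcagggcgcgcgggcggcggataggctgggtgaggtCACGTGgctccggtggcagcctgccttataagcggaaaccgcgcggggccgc
Sc5d: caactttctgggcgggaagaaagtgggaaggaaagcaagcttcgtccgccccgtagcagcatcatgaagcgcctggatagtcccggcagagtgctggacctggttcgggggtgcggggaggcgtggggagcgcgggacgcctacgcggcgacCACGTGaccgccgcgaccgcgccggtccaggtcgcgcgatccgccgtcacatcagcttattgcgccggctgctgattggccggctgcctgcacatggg
A match to these letters is a description of the sequence and not a measured binding site.

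Between 19812080 and 25795815 reads were recovered per library, and 14650 to 15573 genes were detected. The value of a member is its normalized count, the read count divided by the size factor of the library, and 3 reads, taken as the limit of detection, correspond to 2.48 to 3.23 on this scale. This limit covers counting error only, since reads were not tied to single molecules. The sorting markers were checked in the RNA. Normalized counts of *Fcer2a*, which encodes CD23, were 9454 to 17966 in cMyc+early and 1285 to 3953 in cMyc+lateCD23lo. Those of *Cr2*, which encodes CD21/35, were 1057 to 2939 in cMyc+prePB and 5463 to 9350 in cMyc+early. In cMyc+lateCD23lo, sorted as low for CD21/35, *Cr2* had 2633 to 8993 and overlapped cMyc+early. *Cd69* overlapped between cMyc+prePB (2439 to 5346) and cMyc+lateCD23int (2122 to 6126). Of the markers of neutrophils, 1 of 5 was detected in any library, with *S100a9*, *Ly6g*, *Elane* and *Mpo* at 0, and 6 of 6 T cell markers were detected with a summed normalized count of 12.6 to 206.5 per library. The 6 macrophage and monocyte markers summed to 0.962 to 1157. The 5 erythroid markers, all detected, summed to 165 to 3131 in cMyc+prePB, 473 to 2426 in cMyc+early, 783 to 4954 in cMyc+lateCD23int and 682 to 1497 in cMyc+lateCD23lo, with medians of 292, 540, 1345 and 964. The 5 germinal center B cell markers had medians of 23446, 28326, 30947 and 36479 in that order, and the 4 platelet markers summed to 7.08 to 291 over all libraries. The 5 plasma cell markers, all detected, summed to 37257 to 111293 in cMyc+prePB, 23488 to 30149 in cMyc+early, 31588 to 59105 in cMyc+lateCD23int and 56149 to 90119 in cMyc+lateCD23lo. Most of each sum was *Jchain*, at 31885 to 104886, 18862 to 25960, 26598 to 55167 and 51542 to 84470 in that order. *Prdm1* had 6.31 to 119, 0 to 7.96, 36.3 to 130 and 10.2 to 133. *Xbp1* had 3956 to 5894 in cMyc+prePB and 3284 to 5091 elsewhere, and *Irf4* and *Sdc1* overlapped between all subpopulations. The 5 B cell markers summed to 80224 to 135936, 103825 to 173830, 133364 to 230171 and 115758 to 183523 in the same order. The part of these differences in the members' levels was not tested.

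Levels per length, in reads per kilobase of exon scaled to the recovered reads of the library (RPKM), spanned from 113 for *Acat2* to 0.241 for *Fads2*. The member with the highest level in its role was *Acat2* (113) in the mevalonate pathway, *Cyp51* (32.4) from squalene to cholesterol, *Insig1* (26.3) in sterol sensing and transfer, *Acly* (15.2) in fatty acid synthesis and *Scd1* (27.8) in desaturation and elongation. Within the mevalonate pathway, *Idi1* (73.5), *Fdps* (56.6) and *Hmgcs1* (42.4) followed *Acat2*, whereas *Mvd* (4.21) and *Mvk* (1.54) were lowest. The enzymes of fatty acid synthesis proper were low, at 1.83 for *Fasn* and 0.452 for *Acaca*.

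**Figure D1:**
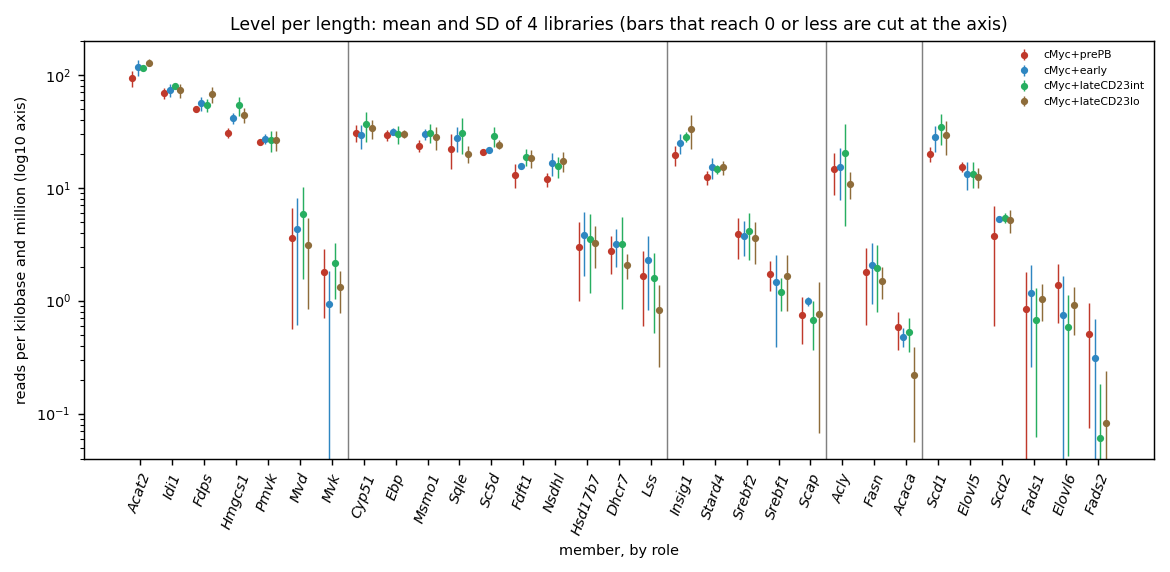
Levels of the 31 members with reads, in RPKM on a log10 axis, ordered by role from left to right (mevalonate pathway, squalene to cholesterol, sterol sensing and transfer, fatty acid synthesis, desaturation and elongation). Points are means and bars the SD of the 4 libraries of each subpopulation, and the means run from 113 for *Acat2* to 0.241 for *Fads2* over all libraries.

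To ask whether the members differed between the 4 subpopulations, log2(normalized count + 1) was fitted in limma over all 16 libraries. No member passed an adjusted p of 0.05 in the moderated F test, where 0.408% of all tested genes did. At an unadjusted p under 0.05, 7 of 31 members (22.6%) passed, against 10.2% of all genes, and these were *Acat2*, *Hmgcs1*, *Fdft1*, *Sc5d*, *Insig1*, *Acaca* and *Scd1*. The quasi-likelihood test of edgeR on the recovered reads also called 0 members at an adjusted p of 0.05 and 7 at an unadjusted p under 0.05, against 0.232% and 8.89% of all genes.

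Counted by member, the fitted levels leaned to lower values in cMyc+prePB, with no member past the adjusted threshold. For 24 of 31 members the fitted level of cMyc+prePB lay below that of cMyc+early (48.8% of all genes), for 23 below that of cMyc+lateCD23int (51.8%) and for 19 below that of cMyc+lateCD23lo (50.5%). In 17 members it was below all 3 other subpopulations and in 5 above all 3, but the share of all genes with these orders was not counted. Whether the members vary independently of each other was not tested. The log2 values, relative to the mean of each member, were also averaged over the 31 members in each library. For cMyc+prePB this average was -0.034 ± 0.27 (SD, n = 4), close to the -0.029 ± 0.12 of cMyc+lateCD23lo. It was 0.023 ± 0.36 for cMyc+early and 0.041 ± 0.35 for cMyc+lateCD23int. The library averages over all 31 members thus differed by less than their spread and did not show the lean. Roles differed in this average. For the 17 members of the mevalonate pathway and from squalene to cholesterol it was -0.17 ± 0.19 in cMyc+prePB. It was 0.0013 ± 0.20 in cMyc+early, 0.17 ± 0.26 in cMyc+lateCD23int and -0.0028 ± 0.15 in cMyc+lateCD23lo. For desaturation and elongation it was 0.35 ± 0.46, -0.020 ± 1.2, -0.37 ± 0.67 and 0.044 ± 0.40 in that order. The 3 comparisons share the cMyc+prePB libraries and are therefore not independent of each other. In these comparisons 0 members passed an adjusted p of 0.05 in limma without the replicate block, where 0.192%, 0.144% and 0.264% of all genes did. At an unadjusted p under 0.05, 5, 6 and 9 members were lower in cMyc+prePB (4.77%, 5.36% and 6.63% of all genes) and 0, 1 and 2 were higher (3.81%, 3.41% and 6.07%). In 2, 5 and 5 members, all cMyc+prePB libraries lay below all libraries of the other subpopulation (2.18%, 2.75% and 3.55% of all genes), and no member showed the opposite order (2.06%, 2.46% and 3.01%). In edgeR 0 members passed an adjusted p of 0.05 (0.064%, 0.088% and 0.248% of all genes), and 4, 5 and 9 had an unadjusted p under 0.05 (7.76%, 7.83% and 12%). The median log2 fold change of the members was -0.18 against cMyc+early, -0.25 against cMyc+lateCD23int and -0.12 against cMyc+lateCD23lo, beside medians of all genes of 0.013, -0.021 and -0.0064.

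These medians moved with single libraries. Without cMyc+prePB replicate 4 the median against cMyc+early was -0.32 and without cMyc+prePB replicate 1 it was -0.12. Against cMyc+lateCD23int it was -0.12 without cMyc+lateCD23int replicate 3 and -0.16 without cMyc+prePB replicate 1. Against cMyc+lateCD23lo it was -0.078 without cMyc+lateCD23lo replicate 3, and -0.19 without cMyc+prePB replicate 4 and also without cMyc+lateCD23lo replicate 4. The number of members lower in cMyc+prePB ranged from 20 to 25, 18 to 26 and 17 to 22 when each library was left out in turn. The mean of cMyc+prePB was the lowest of the 4 subpopulations in 15 members (48.4%, against 27.7% of all genes), and that of cMyc+lateCD23int was the highest in 12 (38.7%, against 20.7%).

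**Figure D2:**
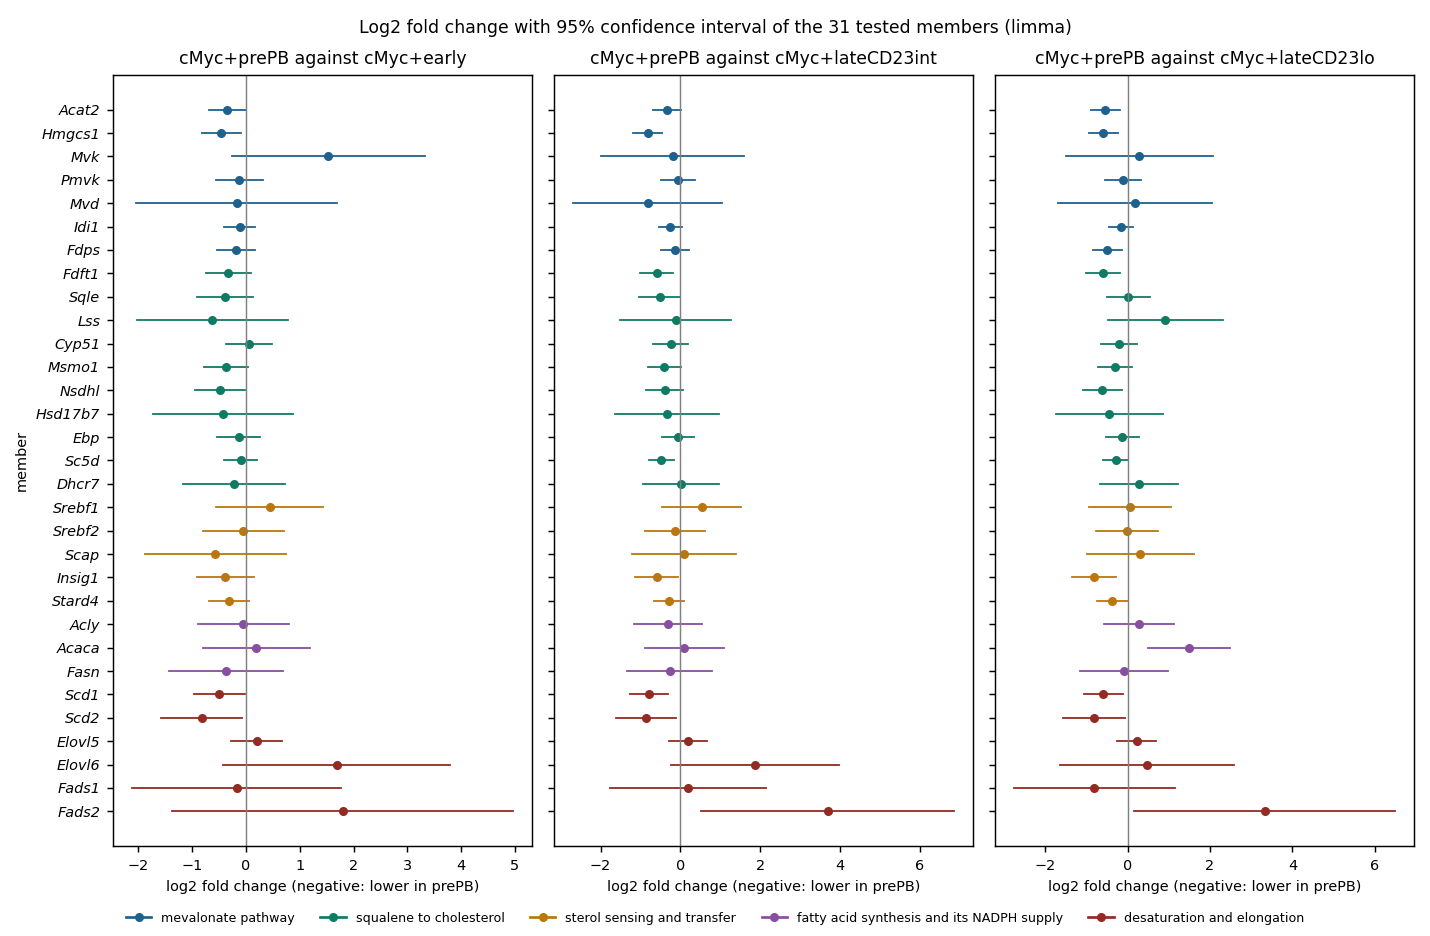
Log2 fold change (x axis, negative values are lower in cMyc+prePB) with its 95% confidence interval for the 31 tested members (y axis), in cMyc+prePB against each other subpopulation, colored by role. Most points lie left of 0, with 24, 23 and 19 of 31 members lower in cMyc+prePB, and the intervals are narrow for highly expressed members such as *Hmgcs1* and wide for low ones such as *Fads2*.

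The mevalonate pathway (7 members) had cMyc+prePB below cMyc+early in 6 members, below cMyc+lateCD23int in 7 and below cMyc+lateCD23lo in 5, with median log2 fold changes of -0.17, -0.25 and -0.15. With the GC contrast of the library (described with the GC values) in the model, these medians were -0.14, -0.28 and -0.37. *Hmgcs1* (ENSMUSG00000093930, chr13:119690379-119708260 of GRCm38, + strand) encodes the cytosolic synthase that makes HMG-CoA, the step after *Acat2*. Its normalized counts were 3679, 2991, 3015 and 2703 in the cMyc+prePB libraries, 4009, 3691, 5338 and 4027 in cMyc+early, 5810, 5423, 6414 and 4293 in cMyc+lateCD23int and 5357, 4248, 5334 and 3758 in cMyc+lateCD23lo. Every cMyc+prePB library lay below every library of the other 3 subpopulations, the closest being 3679 and 3691. The mean was 3097 ± 413 (SD, n = 4) in cMyc+prePB and 5485 ± 893 (SD, n = 4) in cMyc+lateCD23int. The log2 fold change in limma was -0.82 ± 0.17 (SE) against cMyc+lateCD23int (adjusted p = 0.0676), -0.59 ± 0.17 against cMyc+lateCD23lo (adjusted p = 0.167) and -0.46 ± 0.17 against cMyc+early (adjusted p = 0.451). In the F test of limma its adjusted p was 0.133, the lowest among the members. The difference from cMyc+lateCD23int passed after rescaling the libraries to the same total (log2 fold change -0.78, adjusted p = 0.0496 in limma) and after quantile normalization (-0.84, adjusted p = 0.0383), so that its call depends on the scaling. It also passed without cMyc+prePB replicate 1 (-0.90, adjusted p = 0.0455 in limma). With the replicate number as a block it passed too (adjusted p = 0.00751 in limma and 0.0099 in edgeR). Over all alternatives tried, including edgeR, the adjusted p of this difference ranged from 0.00388 to 0.244 and its log2 fold change from -0.93 to -0.74. The lowest adjusted p came from limma with both the block and the GC contrast. Of the exon bases of *Hmgcs1*, 12.1% lie under exons of an annotated gene on the opposite strand, and strandedness of the counting is not given in the sources used here.

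*Acat2* (ENSMUSG00000023832, chr17:12942890-12960747, - strand), the cytosolic thiolase that joins acetyl-CoA units at the start of the pathway, had 5536, 4178, 6247 and 4920 normalized counts in cMyc+prePB, 7746, 4714, 7193 and 7085 in cMyc+early, 7123, 6281, 6239 and 6406 in cMyc+lateCD23int and 8068, 6390, 8262 and 7482 in cMyc+lateCD23lo. The cMyc+prePB and cMyc+lateCD23lo libraries did not overlap, and the log2 fold change was -0.54 ± 0.16 (SE, adjusted p = 0.188 in limma). Its near relative *Acat3* had a mean normalized count of 8.5, against 6492 for *Acat2*. *Fdps* (ENSMUSG00000059743, chr3:89093588-89101959, - strand), which makes farnesyl diphosphate for sterols and for protein prenylation, had 4808, 4453, 4870 and 4215 in cMyc+prePB, 6103, 4160, 6479 and 4455 in cMyc+early, 4639, 5562, 4903 and 5047 in cMyc+lateCD23int and 7577, 5786, 7546 and 5189 in cMyc+lateCD23lo. All cMyc+lateCD23lo libraries were above those of cMyc+prePB (log2 fold change -0.49 ± 0.17, SE, adjusted p = 0.240 in limma). Of the exon bases of *Fdps*, 26.7% lie under exons of a second annotated gene on the same strand, which had a mean normalized count of 2.99.

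The other 4 members of the pathway had overlapping groups in all comparisons with cMyc+prePB. *Idi1*, which isomerizes isopentenyl diphosphate, varied least, from 4784 to 6795 over the 16 libraries, and *Pmvk*, phosphomevalonate kinase, ranged from 773 to 1275. *Mvk*, mevalonate kinase, ranged from 4.19 to 191 and *Mvd*, the decarboxylase that forms isopentenyl diphosphate, from 18.3 to 406. For these low-level kinase and decarboxylase transcripts the spread within subpopulations was 1.27 and 1.42 on the log2 scale, against 0.16 for *Idi1*. The 95% confidence intervals of their log2 fold changes in cMyc+prePB reached from -1.98 to 3.32 for *Mvk* and from -2.69 to 2.06 for *Mvd*.

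From squalene to cholesterol (10 members), 9, 9 and 7 members had lower levels in cMyc+prePB, against cMyc+early, cMyc+lateCD23int and cMyc+lateCD23lo in turn, with median log2 fold changes of -0.35, -0.36 and -0.25. *Fdft1* (ENSMUSG00000021273, chr14:63145150-63179578, - strand), squalene synthase and the point where carbon is committed to sterols, had 815, 1330, 1286 and 1344 normalized counts in cMyc+prePB, 1581, 1353, 1526 and 1412 in cMyc+early, 1784, 1549, 2033 and 1727 in cMyc+lateCD23int and 1987, 1387, 2206 and 1586 in cMyc+lateCD23lo. The cMyc+prePB libraries were again below all others, by as little as the gap between 1344 and 1353. The log2 fold changes were -0.33 ± 0.20, -0.59 ± 0.20 and -0.59 ± 0.20 (SE) against cMyc+early, cMyc+lateCD23int and cMyc+lateCD23lo, with adjusted p-values of 0.695, 0.353 and 0.234 in limma. Of its exon bases, 18.3% lie under exons of *Ctsb* on the opposite strand, which had a mean normalized count of 2575.

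*Sc5d* (ENSMUSG00000032018, chr9:42251595-42264256, - strand), a sterol desaturase near the end of the route, had 2270, 2072, 2165 and 2333 in cMyc+prePB, 2399, 2282, 2430 and 2321 in cMyc+early, 3161, 3376, 3509 and 2376 in cMyc+lateCD23int and 2469, 2733, 3019 and 2614 in cMyc+lateCD23lo. Here cMyc+prePB and cMyc+early both lay low, and they overlapped. The log2 fold change was -0.48 ± 0.15 (SE) in cMyc+prePB against cMyc+lateCD23int (adjusted p = 0.295 in limma), -0.29 ± 0.15 against cMyc+lateCD23lo (adjusted p = 0.417), both without overlap, and -0.095 ± 0.15 against cMyc+early (adjusted p = 0.925). *Cyp51* (ENSMUSG00000001467, chr5:4081145-4104746, - strand), the demethylase of lanosterol, had 2470, 3505, 2766 and 3058 in cMyc+prePB, 1998, 3100, 3183 and 3108 in cMyc+early, 3025, 2694, 4527 and 3925 in cMyc+lateCD23int and 3426, 3553, 4162 and 2590 in cMyc+lateCD23lo. Its groups overlapped in every comparison, and its log2 fold changes in cMyc+prePB were 0.06, -0.25 and -0.21 (SE 0.20 each).

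Among the other 7 members, *Nsdhl*, a sterol dehydrogenase, had its mean lowest in cMyc+prePB at 746 ± 133 (SD, n = 4) and highest in cMyc+lateCD23lo at 1151 ± 267, a log2 fold change of -0.61 ± 0.22 (SE, adjusted p = 0.263 in limma). *Msmo1*, methylsterol monooxygenase, had 3178 ± 470 in cMyc+prePB and 4012 ± 1028 to 4216 ± 713 elsewhere. *Sqle*, squalene epoxidase, had its highest mean in cMyc+lateCD23int, at 3751 ± 1027, followed by cMyc+early with 3401 ± 712, and lower means of 2674 ± 849 in cMyc+prePB and 2544 ± 342 in cMyc+lateCD23lo. *Ebp*, the sterol isomerase, was nearly level, at 1474 to 1627 in the group means. *Lss*, *Hsd17b7* and *Dhcr7*, which act as lanosterol synthase, sterol ketoreductase and the reductase of the last step, were low and scattered, with ranges of 47.4 to 943, 92.0 to 738 and 126 to 759 over the libraries.

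**Figure D3:**
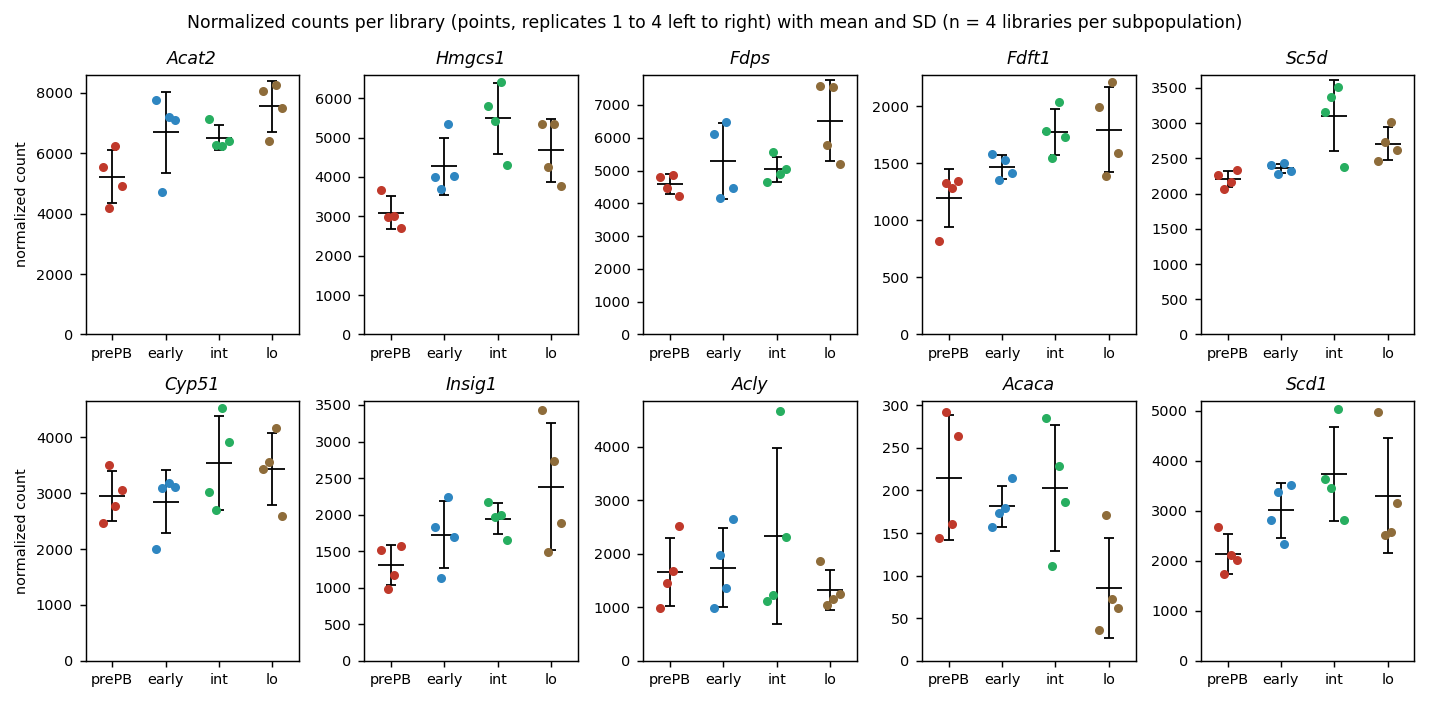
Normalized count (y axis, linear from 0) of 10 members in the 16 libraries, by subpopulation (x axis: cMyc+prePB, cMyc+early, cMyc+lateCD23int, cMyc+lateCD23lo). Points are libraries and bars the mean and SD of 4, and the cMyc+prePB points of *Hmgcs1* and *Fdft1* all lie below those of the other subpopulations, while *Acaca* is lowest in cMyc+lateCD23lo.

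Of the 5 genes of sterol sensing and transfer, the target gene *Insig1* and the carrier *Stard4* had their lowest mean in cMyc+prePB. The fitted level was below cMyc+early in 4, below cMyc+lateCD23int in 3 and below cMyc+lateCD23lo in 3 of the 5, with median log2 fold changes of -0.31, -0.14 and -0.005. With the GC contrast of each library in the model, these medians were -0.31, -0.28 and -0.37. *Insig1* (ENSMUSG00000045294, chr5:28071363-28078662, + strand), which retains the SCAP and SREBP complex in the endoplasmic reticulum, had 1513, 987, 1170 and 1573 normalized counts in cMyc+prePB, 1836, 1135, 2239 and 1696 in cMyc+early, 2169, 1971, 1993 and 1653 in cMyc+lateCD23int and 3434, 1488, 2730 and 1881 in cMyc+lateCD23lo. The cMyc+prePB libraries lay below all cMyc+lateCD23int libraries, whereas 1 cMyc+lateCD23lo library, at 1488, fell within their range. The log2 fold changes were -0.59 ± 0.26 (SE, adjusted p = 0.501 in limma) against cMyc+lateCD23int, -0.81 ± 0.26 (adjusted p = 0.206) against cMyc+lateCD23lo and -0.38 ± 0.26 (adjusted p = 0.745) against cMyc+early. *Stard4*, which carries cholesterol between membranes, had 1502 ± 163 (SD, n = 4) in cMyc+prePB and 1828 ± 256 to 1961 ± 334 in the others, and its log2 fold change against cMyc+lateCD23lo was -0.38 ± 0.18 (SE, adjusted p = 0.391 in limma). *Srebf2*, the SREBP gene most tied to sterol synthesis, had group means of 586 to 650, and its log2 fold changes in cMyc+prePB ran from -0.14 to -0.005 with 95% confidence intervals that reached from -0.90 to 0.75. *Srebf1* had group means of 149 to 218 and *Scap* of 112 to 167, with log2 spreads within subpopulations of 0.63 and 0.88.

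Of the 4 members of fatty acid synthesis and its NADPH supply, the 3 tested ones had their lowest mean in cMyc+lateCD23lo. Against cMyc+early, cMyc+lateCD23int and cMyc+lateCD23lo, 2, 2 and 1 of the 3 had lower levels in cMyc+prePB, with median log2 fold changes of -0.046, -0.27 and 0.28. With the GC contrast of the library in the model, these medians were -0.28, -0.62 and -0.39, so that the last one turned its sign. *Acaca* (ENSMUSG00000020532, chr11:84129672-84401651, + strand) encodes acetyl-CoA carboxylase, which makes malonyl-CoA. It had 144, 292, 160 and 264 normalized counts in cMyc+prePB, 157, 173, 179 and 215 in cMyc+early, 286, 111, 228 and 186 in cMyc+lateCD23int and 36.6, 171, 72.4 and 62.2 in cMyc+lateCD23lo. In cMyc+lateCD23lo 3 libraries were below all others and 1, at 171, was within their range. Log2 fold changes against cMyc+lateCD23lo were 1.48 ± 0.47 (SE) in cMyc+prePB (adjusted p = 0.216 in limma), 1.29 ± 0.47 in cMyc+early (adjusted p = 0.345) and 1.38 ± 0.47 in cMyc+lateCD23int (adjusted p = 0.699).

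*Acly* (ENSMUSG00000020917, chr11:100476353-100528000, - strand), ATP citrate lyase, had 994, 1461, 1674 and 2521 in cMyc+prePB, 978, 1976, 1354 and 2662 in cMyc+early, 1110, 1225, 4664 and 2316 in cMyc+lateCD23int and 1873, 1048, 1148 and 1246 in cMyc+lateCD23lo. Libraries of 1 subpopulation differed as much as subpopulations did, and the lowest adjusted p of its 6 comparisons was 0.809 in limma. *Fasn*, the synthase that builds palmitate, ranged from 146 to 781 and had group means of 378 to 495. *Me1*, the cytosolic malic enzyme that yields NADPH, was at 0 reads in all 16 libraries, which allows a normalized count of up to 2.48 to 3.23 in a library.

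Desaturation and elongation (6 members) was divided, with 3, 2 and 3 members at lower levels in cMyc+prePB and median log2 fold changes of 0.014, 0.19 and -0.18 in the same 3 comparisons. With the GC contrast in the model the medians were -0.11, 0.026 and -0.57, the first with the opposite sign. *Scd1* (ENSMUSG00000037071, chr19:44394455-44407879, - strand) encodes a stearoyl-CoA desaturase, which introduces the double bond of oleate. It had 2683, 1730, 2113 and 2020 normalized counts in cMyc+prePB, 2813, 3374, 2328 and 3515 in cMyc+early, 3640, 3452, 5034 and 2811 in cMyc+lateCD23int and 4968, 2509, 2580 and 3148 in cMyc+lateCD23lo. All cMyc+prePB libraries lay below those of cMyc+lateCD23int, with overlap in the other comparisons. Its log2 fold changes were -0.49 ± 0.23, -0.79 ± 0.23 and -0.59 ± 0.23 (SE) against cMyc+early, cMyc+lateCD23int and cMyc+lateCD23lo, with adjusted p-values of 0.577, 0.247 and 0.288 in limma. The related desaturase gene *Scd2* had 261, 302 and 221 in cMyc+prePB replicates 1 to 3 and 993 in replicate 4, against 517 to 791 in the other 12 libraries. Its adjusted p in the F test of limma was 0.539, and 0.0434 without cMyc+prePB replicate 4, so that this library decided the call.

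Of the other members of this group, *Elovl5*, *Elovl6* and *Fads2* did not share the lower values of cMyc+prePB, and *Fads1* shared them only in part. *Elovl5*, an elongase of polyunsaturated fatty acids, had its highest mean in cMyc+prePB, at 1172 ± 122 (SD, n = 4) against 1014 ± 208 to 1047 ± 233. *Elovl6*, which elongates palmitate, ranged from 4.98 to 308 and had group means of 191 ± 99.2 in cMyc+prePB and 81.6 ± 76.3 in cMyc+lateCD23int, a log2 fold change of 1.86 ± 1.0 (SE, adjusted p = 0.626 in limma). The ratio of these means was 2.34 and the log2 fold change in edgeR 1.23, while the difference in limma corresponds to a fold of 3.63, with 1 library of cMyc+lateCD23int at 4.98. *Fads1* ranged from 6.74 to 234, with 44.1, 40.5 and 35.2 in cMyc+prePB replicates 1 to 3 and 234 in replicate 4. The ratio of its cMyc+prePB mean was 0.74 to cMyc+early, 1.25 to cMyc+lateCD23int and 0.78 to cMyc+lateCD23lo. *Fads2*, the desaturase that starts the polyunsaturated route, had 16.1, 6.62, 50.5 and 73.0 in cMyc+prePB, 1.05, 54.9, 0 and 28.9 in cMyc+early, 0, 0, 16.6 and 0 in cMyc+lateCD23int and 1.08, 22.5, 0 and 0 in cMyc+lateCD23lo. It was above 3 reads in every cMyc+prePB library and at or under 3 reads in 8 of the 12 others, and no fold is given against groups with so few reads (adjusted p = 0.489 and 0.369 against cMyc+lateCD23int and cMyc+lateCD23lo in limma).

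Among the remaining 3 comparisons, which share libraries with those above, few members differed. At an unadjusted p under 0.05, *Hmgcs1* and *Sc5d* were lower in cMyc+early than in cMyc+lateCD23int (2.26% of all genes), with log2 fold changes of -0.36 ± 0.17 and -0.38 ± 0.15 (SE). *Acaca* and *Lss* were higher in cMyc+early than in cMyc+lateCD23lo (5.2% of all genes), the latter by 1.54 ± 0.67. *Fdps* was lower in cMyc+lateCD23int than in cMyc+lateCD23lo (2.51%) and *Acaca* and *Sqle* were higher (3.77%), with log2 fold changes of -0.36 ± 0.17, 1.38 ± 0.47 and 0.53 ± 0.25. No member reached an adjusted p of 0.05 in limma in any of them, where 0.008%, 0.28% and 0.008% of all genes did. In edgeR 0 passed (0.008%, 0.184% and 0.008%), and 1, 2 and 3 had an unadjusted p under 0.05 (3.54%, 9.93% and 6.21%). The libraries did not overlap for *Sc5d*, lower in cMyc+early than in cMyc+lateCD23lo (3.37% of all genes), and for *Sqle*, higher in cMyc+lateCD23int than in cMyc+lateCD23lo (1.91%). The median log2 fold change of the 31 members was -0.012, -0.020 and 0.037.

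Part of the spread between libraries followed their GC composition. For each library a GC contrast was taken as the median of the centered log2 values of the tested genes in the quintile with the GC-richest transcripts minus that of the GC-poorest quintile. It was -0.35, 0.27, 0.46 and 0.69 in the cMyc+prePB libraries, -0.35, 0.51, -0.18 and 0.43 in cMyc+early, -0.50, -0.28, 0.62 and 0.38 in cMyc+lateCD23int and -0.18, -0.033, -0.34 and -0.26 in cMyc+lateCD23lo. All 4 cMyc+lateCD23lo libraries were below 0, and the other subpopulations had libraries on both sides. By replicate number, all 4 libraries of replicate 1 were below 0, and those of replicate 4 were above 0 except in cMyc+lateCD23lo. Those of replicates 2 and 3 lay on both sides. Whether the contrast goes with the replicate number was not tested. In a model with the subpopulation and the GC contrast, 8 of 31 members (25.8%) had a slope with an adjusted p under 0.05 in limma, all of them positive, where 9.94% of all genes had a positive and 9.08% a negative one. These were *Acly*, *Fasn*, *Sqle*, *Srebf2*, *Lss*, *Mvd*, *Dhcr7* and *Fads2*, whose longest transcripts had a GC content of 48.6% to 59.0%. Over all 31 members it was 41.9% to 59.1%, and GC-rich members such as *Scap* (59.1%) and *Pmvk* (57.0%) had no such slope. *Acly* rose by 1.42 ± 0.21 and *Fasn* by 1.62 ± 0.31 log2 units (SE) per unit of contrast, with adjusted p-values of 0.00025 and 0.00197 in limma. The slopes of *Hmgcs1* (-0.23 ± 0.15), *Fdft1* (0.18 ± 0.18), *Sc5d* (-0.071 ± 0.13), *Insig1* (-0.35 ± 0.23) and *Scd1* (0.10 ± 0.22) did not pass, with adjusted p-values of 0.325 to 0.791 in limma.

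**Figure D4:**
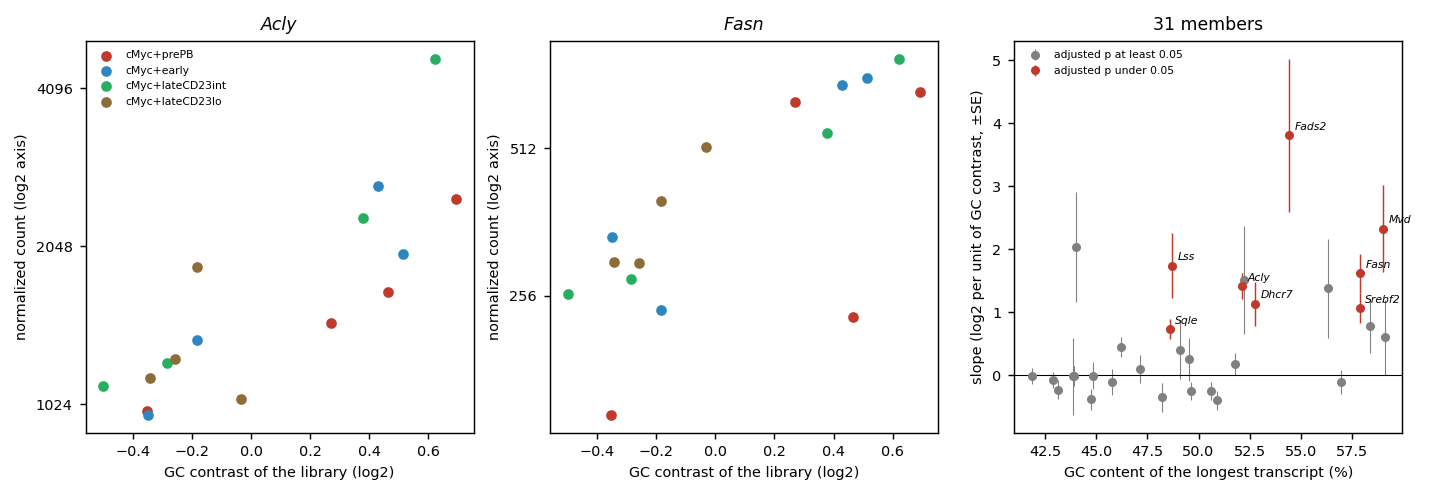
Normalized count of *Acly* and *Fasn* (y axis, log2 scale) against the GC contrast of the library (x axis, log2), with points colored by subpopulation, and, at right, the slope on the GC contrast (y axis, ±SE) of 31 members against the GC content of their longest transcript (x axis, %). The 8 members with an adjusted p under 0.05, in red, all have positive slopes, and *Acly* runs from 978 to 4664.

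With the GC contrast in the model, 25 of 31 members had lower levels in cMyc+prePB in each of the 3 comparisons (49.9%, 52.4% and 50.9% of all genes), and the median log2 fold changes of the members were -0.31, -0.33 and -0.37, beside 0.0016, -0.026 and -0.0099 over all genes. The log2 fold change of *Hmgcs1* against cMyc+lateCD23int was -0.77 (adjusted p = 0.0435 in limma), while *Acat2* against cMyc+lateCD23lo had -0.43 (adjusted p = 0.388) and *Insig1* -0.65 (adjusted p = 0.429). In the F test 5 members had an unadjusted p under 0.05 (11.8% of all genes), namely *Hmgcs1*, *Fdft1*, *Sc5d*, *Scd1* and *Sqle*, and 0 passed the adjusted threshold (0.592% of all genes). The GC contrast was added after the data had been seen, and what gave rise to it was not tested.

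**Figure D5:**
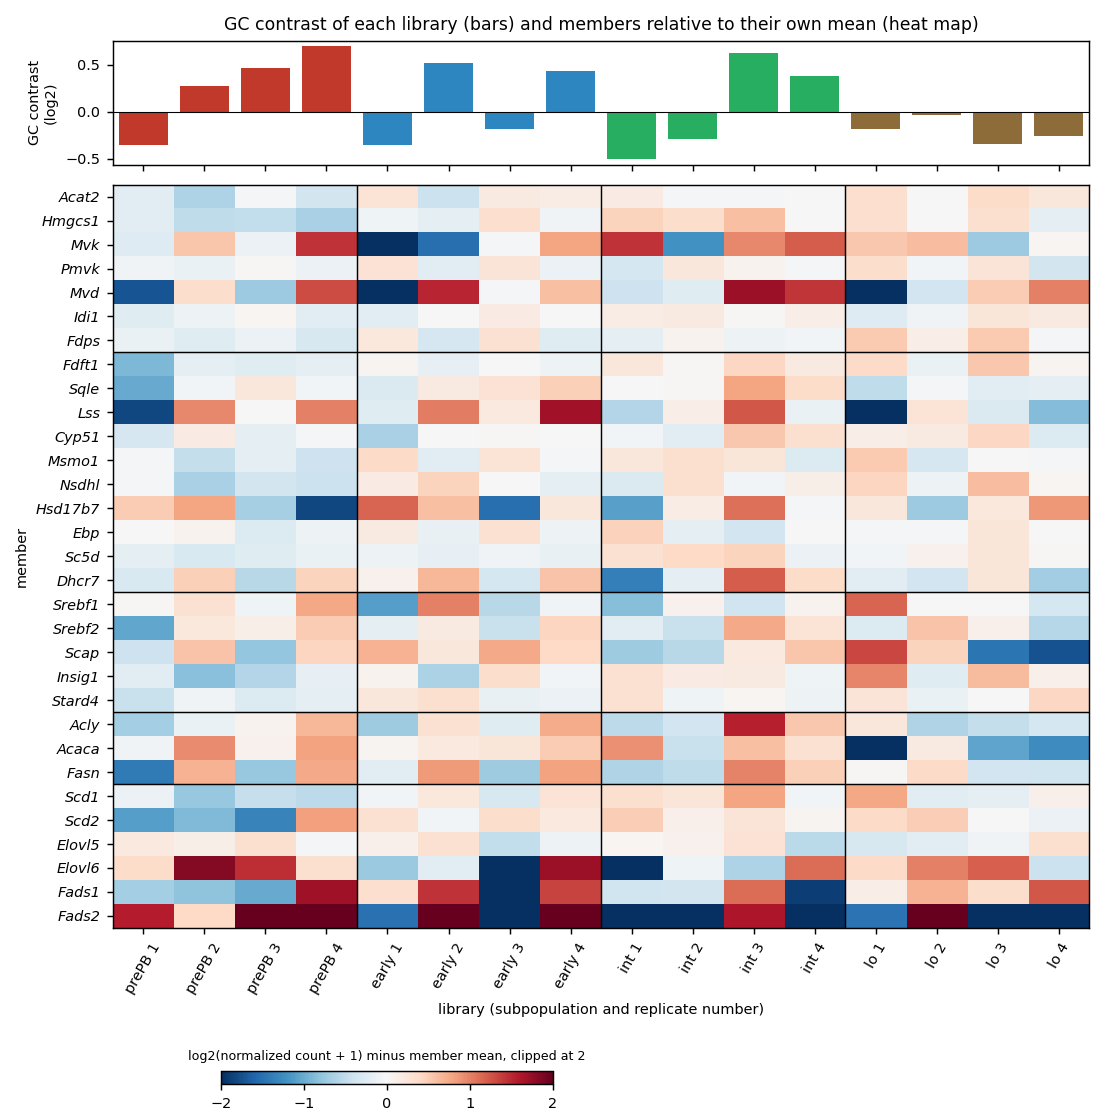
GC contrast of each library (bars, log2) above log2(normalized count + 1) of the 31 members relative to the mean of each member (rows, clipped at 2 in either direction) in the 16 libraries (columns, by subpopulation and replicate number). In cMyc+prePB the rows of *Hmgcs1* and *Fdft1* are blue in all 4 libraries, and *Acly* and *Fasn* are mostly red where the bars are above 0, with *Fasn* in cMyc+prePB replicate 3 among the exceptions.

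The other genes of these pathways were taken from lists of 17 sterol and 21 fatty acid genes that are no members. Of 16 tested sterol genes, 12, 10 and 11 had lower levels in cMyc+prePB in the same 3 comparisons (48.8%, 51.8% and 50.5% of all genes). Their median log2 fold changes were -0.28, -0.29 and -0.49 (-0.20, -0.31 and -0.37 with the GC contrast in the model). Of them, 0 passed an adjusted p of 0.05 in limma (0.192%, 0.144% and 0.264% of all genes). At an unadjusted p under 0.05, 2, 3 and 3 were lower (4.77%, 5.36% and 6.63% of all genes) and 1, 1 and 0 higher (3.81%, 3.41% and 6.07%). The same shares of all genes stand beside the counts of fatty acid genes. *Abca1*, the cholesterol exporter, was at 1 read or less in 3 cMyc+prePB libraries and at 67.6 in the other, and had 49.0 to 439 in cMyc+lateCD23lo (adjusted p = 0.0843 in limma and 0.299 in edgeR). Of 17 tested fatty acid genes, 11, 8 and 7 had lower levels in cMyc+prePB, with median log2 fold changes of -0.14, 0.18 and 0.20 (-0.081, 0.091 and 0.10 with the GC contrast in the model), and 0 passed an adjusted p of 0.05 in limma (1, 0 and 1 were lower and 1, 2 and 3 higher at an unadjusted p under 0.05). *Slc25a1*, the mitochondrial citrate carrier upstream of *Acly*, had 307 to 559 in cMyc+prePB and 58.2 to 162 in cMyc+lateCD23lo, with no overlap (log2 fold change 2.17 ± 0.60, SE, adjusted p = 0.139 in limma and 0.149 in edgeR). *Fabp5*, a fatty acid carrier, had 200 to 363 in cMyc+prePB and 105 to 143 in cMyc+early (log2 fold change 1.21 ± 0.51, SE, adjusted p = 0.530 in limma). In these bulk libraries, fewer cells that express a gene and less RNA of it per cell cannot be told apart.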

How the data were processed

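Total RNA of 16 libraries was sequenced. Per the labels, the submitters' processing notes name Trimmomatic 0.36, STAR 2.5.2a, RSEM 1.2.31, DESeq2 1.20.0, R 3.5.1 and GRCm38, without their roles. The authors deposited a normalized signal, made of gene counts that had been scaled by 1 size factor for each library. Every value was a whole multiple (tolerance 0.01) of the smallest value of its library, so whole reads were recovered for 100% of values.

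The main test was limma 3.58.1 in R 4.3.3 on log2(normalized count + 1). It took the 12505 genes whose mean reached 10, a trended prior, 1 model over all libraries and Benjamini-Hochberg adjustment over all tested genes. A fold on this scale is a difference of mean log2 values. The pseudocount shrinks it for low genes, and it can exceed the ratio of group means where libraries near 0 are among them. edgeR 4.0.16 (quasi-likelihood test, on recovered reads) and the GC contrast as a covariate, were added after the data were seen. Tests were tried on simulated counts. Positions are from the GENCODE annotation of GRCm38. Every library value is given for members with an unadjusted F test p under 0.05 or an adjusted p under 0.05, for those without overlap at an unadjusted p under 0.01 and for the highest of each role per length. *Scd2* and *Fads2*, and the genes that are no members, were named after their values were seen. Members and gene lists were chosen with earlier results of these data known. The alternatives were pseudocounts, filters, scaling, the replicate block, a prior without trend, fits of the compared groups alone and leaving out each library.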

Additional observations from a re-analysis of the deposited data

Results flagged for a closer look

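In 9 of 124 groups of 4 libraries (31 members in 4 subpopulations), 1 library stood apart from the other 3 by Dixon's criterion, where chance gives about 5%. *Fdft1* was low in cMyc+prePB replicate 1, at a normalized count of 815 against 1286 to 1344 in the others. *Cyp51* was low in cMyc+early replicate 1 (1998 against 3100 to 3183) and *Msmo1* in cMyc+lateCD23int replicate 4 (3162 against 4478 to 4742). *Ebp* was high in cMyc+lateCD23lo replicate 3 (1832 against 1519 to 1544) and *Srebf1* in cMyc+lateCD23lo replicate 1 (391 against 137 to 172). In cMyc+prePB replicate 4, *Scd2* (993 against 221 to 302) and *Fads1* (234 against 35.2 to 44.1) were high. *Fads2* was high in cMyc+lateCD23int replicate 3 (16.6 against 0) and in cMyc+lateCD23lo replicate 2 (22.5 against 0 to 1.08), with the others at or under 1 read.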

How the results depend on the processing

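The alternatives were followed for 8 members, in the F test and in the comparison where each had its smallest p. Of these 456 values, 444 kept their side of the threshold and, for fold changes, their direction, 12 newly passed, and 0 reversed. These members were picked by their p-values or lack of overlap in these same data. The count therefore does not measure how stable the members are in general. The count of members called, 0 in the reported fits, was 1 in cMyc+prePB against cMyc+lateCD23int after rescaling to the same total, quantile normalization and with the GC contrast (*Hmgcs1* each time). Whether equal replicate numbers mark paired libraries was not settled. Of 24 correlations of deviations between libraries of the same number, 5 were over 0.1 (mean 0.0509). Out of the 4 replicate numbers, 11 of 16 libraries correlated best with their own. The main fit left the replicate number out, and its count of 0 members called depends on that choice. With the replicate block, *Hmgcs1* passed in the F test (count 1, adjusted p = 0.0211), against cMyc+lateCD23int (1, adjusted p = 0.00751, log2 fold change -0.82) and, with *Acat2* (adjusted p = 0.0413), against cMyc+lateCD23lo (2), where 0.968% and 1.54% of all genes passed in these 2 comparisons. *Slc25a1* (adjusted p = 0.0260) and *Abca1* (0.0317), which are no members, also passed against cMyc+lateCD23lo with the block in limma. With the replicate block in edgeR, the counts were 1, 1 and 1. With the block and the GC contrast, 1 passed in the F test and 3 against cMyc+lateCD23int (*Hmgcs1*, *Sqle*, *Scd1*), and the median of the members against cMyc+lateCD23lo was -0.42. For fits where no share of all genes is given, the counts called have no background to be read against. Leaving out each library gave counts of 0 to 1 in the F test and against cMyc+lateCD23int and of 0 in the other comparisons, and 14 to 19 members with their lowest mean in cMyc+prePB. The medians ranged from -0.32 to -0.12 against cMyc+early, -0.33 to -0.12 against cMyc+lateCD23int and -0.19 to -0.078 against cMyc+lateCD23lo. Over all genes the F test called 51 (0.408%), against 173 (1.38%) with the replicate block, 29 (0.232%) in edgeR and 129 (1.03%) in edgeR with the block. The causes were not tested. With 4 libraries per group, low members such as *Mvk*, *Mvd* and *Fads2* could show only large differences.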
